A study of Mus musculus with 2 samples.

Results

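CTCF binding inside the introns of very long genes was described in liver of newborn mice, as peaks whose summit lay in a protein-coding gene over 200 kb, outside every annotated exon and more than 1 kb from every annotated transcript start. These rules used position alone and took no account of peak strength or sequence. Of 57220 peaks in the list the authors kept by the irreproducible discovery rate (IDR), 55759 lay on chromosomes 1 to 19, and 5657 of these (10.1%) met the rule and are called members here. The long genes numbered 953 of 20807 protein-coding genes on these chromosomes in the GENCODE M21 annotation. A further 511 summits inside long genes lay in exons and 439 lay within 1 kb of a transcript start, and both were left out by the rule. Of the members, 5359 lay inside a single protein-coding gene and 298 inside more than 1.

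The series holds 1 group, liver of B6NCrl mice at postnatal day 0, with 2 CTCF ChIP-seq replicates and no treatment. The livers were pulverized and pooled from several dissections, and the sex of the pups was not collected, per the labels. Biosample and donor labels are shared by the replicates, and differences between them may therefore be technical. A control experiment that the labels name was not analysed here.

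CTCF recognises DNA through its zinc fingers at a motif that has a direction, and it halts the cohesin ring as the ring extrudes chromatin loops. Loops are commonly anchored at pairs of CTCF sites whose motifs point towards each other. Long genes consist almost wholly of intron, many encode synapse and ion channel proteins, and several coincide with common fragile sites, which break under replication stress. In rodents, B2 short interspersed elements have spread copies of the CTCF motif through the genome.

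The members with the strongest signal show the sequence bound. Signal is the peak strength the authors deposited, on a scale that is not stated. The lines below give 5 of the strongest members over a perfect match to the 14-base CTCF core, and after them the Rad51b member, which was the second strongest of all and carried 2 mismatches. All are on mm10, 5′ to 3′ on the strand of the core, with the core in capitals and 20 bases on each side.
Gse1, chr8:120319676-120319729, plus strand: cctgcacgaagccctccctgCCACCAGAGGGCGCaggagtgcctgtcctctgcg
Gm20388, chr8:122273306-122273359, plus strand: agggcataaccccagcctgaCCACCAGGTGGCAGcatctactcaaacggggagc
Farp1, chr14:121279253-121279306, plus strand: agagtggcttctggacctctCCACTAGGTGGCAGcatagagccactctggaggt
Ksr2, chr5:117505320-117505373, plus strand: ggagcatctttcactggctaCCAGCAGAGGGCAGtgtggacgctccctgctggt
Pcbp3, chr10:76835847-76835900, plus strand: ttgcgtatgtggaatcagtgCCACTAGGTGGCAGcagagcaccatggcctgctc
Rad51b, chr12:79612844-79612897, plus strand: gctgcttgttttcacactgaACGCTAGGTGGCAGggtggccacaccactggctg

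Other members were linked by similar sequence over 34 bases, the core with 10 bases on each side. The next lines show 5 members of the largest such group, in which each sequence differed from at least 1 other at no more than 4 of the 34 bases. Links run in chains, so members of the group that are not linked directly can differ at more bases. The 5 are among the strongest of the group and lie outside Gm20388.
Arl15, chr13:113865077-113865130, minus strand: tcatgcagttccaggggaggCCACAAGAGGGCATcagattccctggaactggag
Atp5o, chr16:91724422-91724475, plus strand: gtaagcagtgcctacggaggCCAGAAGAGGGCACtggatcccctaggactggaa
Slc2a13, chr15:91301509-91301562, plus strand: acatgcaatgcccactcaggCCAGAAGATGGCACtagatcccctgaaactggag
Tmem178b, chr6:40236238-40236291, plus strand: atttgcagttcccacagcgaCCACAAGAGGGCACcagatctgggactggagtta
Ralgps1, chr2:33347780-33347833, minus strand: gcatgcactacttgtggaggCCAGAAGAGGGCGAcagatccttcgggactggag

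A perfect core was not always under a peak. The 4 lines that follow give perfect cores in introns of the longest genes that had no peak summit within 50 bp in the optimal list or in the pooled list, leaving out 2 in gene models that span many other genes.
Csmd1, chr8:15896523-15896576, minus strand: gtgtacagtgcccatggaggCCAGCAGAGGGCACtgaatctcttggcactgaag
Gpc5, chr14:115821336-115821389, plus strand: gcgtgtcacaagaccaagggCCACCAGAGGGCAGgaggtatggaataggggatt
Agbl4, chr4:110595970-110596023, plus strand: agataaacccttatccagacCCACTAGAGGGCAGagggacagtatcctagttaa
Dab1, chr4:104443903-104443956, plus strand: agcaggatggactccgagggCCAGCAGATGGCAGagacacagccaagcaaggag

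Members were sparse. They lay at 14.8 per Mb of the 381 Mb of eligible intron, which is 1 for every 67.4 kb, beside 23.3 autosomal peaks of all kinds per Mb of the autosomes. In replicate 1 alone the density was 15.1 per Mb and in replicate 2 alone 14.9 per Mb, taking the 57220 strongest peaks of each (15.0 ± 0.145, SD, n = 2). Introns of genes of 20 to 200 kb held 32.4 peaks per Mb, or 32.2 ± 0.145 in the replicates (SD, n = 2), and those of genes under 20 kb held 43.7 per Mb, or 43.5 ± 0.0708. Long-gene introns thus had 0.459 times the density of the middle class and 0.339 times that of short genes. The spread between replicates may be technical, and each replicate list was held to the same number of peaks, so it gives no support to this gap. All classes come from the same 2 libraries, so no test over samples sets them apart and the differences are descriptions.

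Density also fell with length among the long genes themselves. It was 21.8 per Mb in the 412 genes of 200 to 300 kb, 15.9 in the 323 of 300 to 500 kb, 11.1 in the 163 of 500 to 1000 kb and 10.3 in the 55 longer ones. Some gene models span many other genes, such as Gm20388, a model of 4435 kb that holds 71 whole coding genes, and the annotated Fgfr2 model of 2961 kb, which holds 29. Without the 18 models that hold at least 4 whole coding genes, the longest class had 6.33 members per Mb in 52 genes, and the shortest had 22.0 in 403. At the length threshold, the 3 genes just over it were Pcbp3 (200.03 kb, 4 members), Plcxd3 (200.06 kb, 0) and Umad1 (200.18 kb, 4). The 3 genes just under it, Atp9b, Morc1 and Clec16a, held 3, 1 and 8 intronic peaks.

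Base composition moved with both length and density. Introns of long genes had a GC share of 41.2%, against 43.3% in the middle class and 44.8% in short genes. Over the 953 long genes, Spearman's rho of member density was 0.697 with intron GC and -0.293 with gene length, as a description over genes that share the same libraries. When genes were sorted by intron GC, the long ones had fewer peaks per Mb at every level. Below 38% GC, 134 long genes held 4.08 members per Mb and 676 genes of 20 to 200 kb held 12.7. Above 46% GC, 106 long genes held 39.3 and 2503 genes of the middle class held 53.3. The ratio of long to middle class rose over the 6 GC levels, at 0.322, 0.473, 0.541, 0.642, 0.673 and 0.737. These levels include the models that span many genes, and a member inside 2 long genes was counted for each. Gm20388, with an intron GC of 50.4%, gave 229 of the 1311 counts above 46% GC. The 42 members of Gse1 are among them and were counted again for Gse1. Fgfr2 gave 87 of the 1194 counts from 44% to 46%. The rise of the ratio was not tested without these models.

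**Figure D1:**
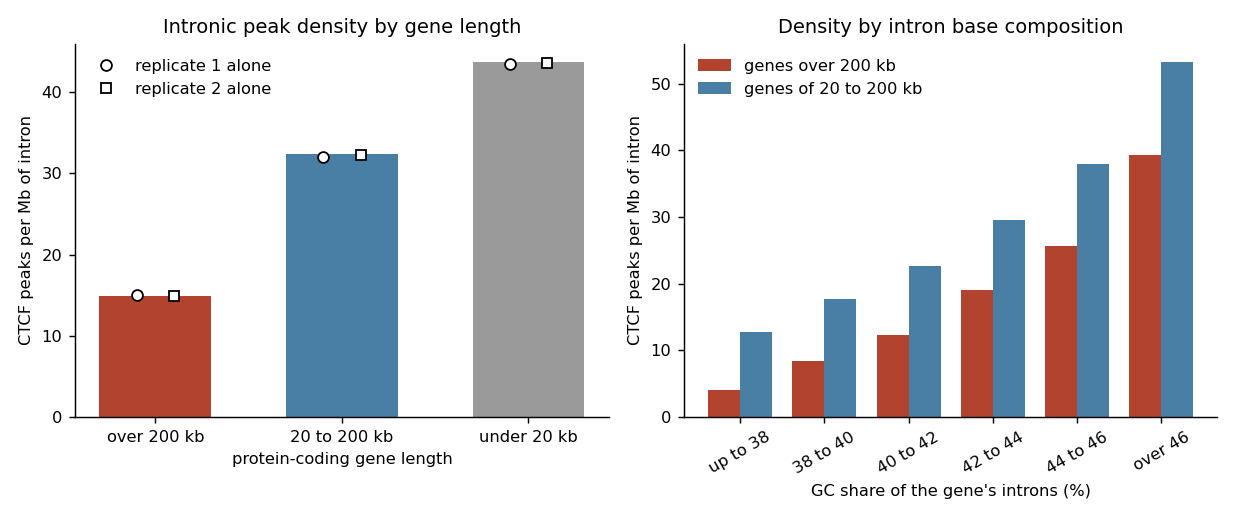
CTCF peaks per Mb of eligible intron by gene length class (left, bars from the optimal list, symbols from each replicate alone) and by intron GC share in genes over 200 kb and of 20 to 200 kb (right). The long-gene bar stands at 14.8 per Mb, against 32.4 and 43.7 in the shorter classes, and it is the lower of each pair at all 6 GC levels.

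Members were also somewhat weaker than other intronic peaks. Their median signal was 61.9 in the optimal list, with quartiles of 29.4 and 152.5, and the medians in the replicates' own lists were 31.7 and 30.6. Intronic peaks of the middle class had a median of 66.0 (34.2 and 32.8 in the replicates) and those of short genes 82.9 (42.8 and 42.03). Of the members, 291 (5.14%, 95% interval 4.58 to 5.75) ranked among the strongest 5722 peaks of the list, against 8.70% (8.22 to 9.19) in the middle class and 13.6% (12.04 to 15.3) in short genes. Intervals here and below are exact binomial ones (Clopper-Pearson) for counting error alone. Of the members, 5552 (98.1%) had a summit within 100 bp in both replicate lists and 4975 (87.9%) were present in the conservative list. The replicate lists hold 300000 peaks each and IDR chose the members from them, so this match does not measure agreement between the replicates.

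The strongest member had a signal of 598.1 in an intron of Gse1, which encodes a partner of histone deacetylase complexes. Its signal was 304.4 in replicate 1, where it ranked 32, and 295.6 in replicate 2, where it ranked 27. The Rad51b member, in a gene for homologous recombination, reached 519.0 in the optimal list, with 277.0 and 242.9 in the replicates. It came next although its best core had 2 mismatches. Members at 482.8 and 482.1 lay in Gm20388, the model that also spans Gse1. Others among the 10 strongest were in Palld, Farp1, Iqsec1, St3gal3 and Ctif, at 480.3, 476.4, 467.3, 466.6 and 464.6. Palld encodes the actin-bundling palladin and St3gal3 a sialyltransferase. A core lay near the summit in all 10, 4 times without a mismatch, and none had its summit in repeat-masked sequence. At the weak end, members in Tmem108, Syn3 and Mob3b had signals of 4.19, 4.29 and 4.52, and none of these was matched in the list of replicate 1.

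Most members carried the CTCF core. It was found with at most 2 mismatches within 50 bp of the summit in 4292 members, or 75.9% (74.7 to 77.0), and in 75.3% of the peaks chosen in the same way from each replicate alone. With at most 1 mismatch the share of members was 42.5%. Windows 1 kb away held the core, with up to 2 mismatches, in 2.33%. The share was 74.2% (73.4 to 74.9) in introns of the middle class and 76.8% (74.8 to 78.8) in those of short genes, and the background over all 50102 other autosomal peaks was 70.6%. Members thus held the core a little more often than other autosomal peaks, while their interval overlapped those of both other intron classes. Of 4162 members with 1 best core, 70.3% had its centre within 10 bp of the summit.

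Signal followed the match to the core. The 589 members with a perfect core had a median of 180.6, and the median was 91.3 at 1 mismatch, 50.1 at 2 and 37.5 at 3. Both replicates gave the same order, at 91.2, 47.6, 25.9 and 19.4 in replicate 1 and 87.2, 46.1, 24.5 and 18.8 in replicate 2. The 1365 members without the core had a median of 34.2, and 95.6% of them were matched in both replicates, against 98.95% of those with the core. A perfect match did not ensure strength. Perfect cores of Tmem132b, Kmt2c, Dock8 and Caln1, chosen as the weakest after their values were seen, lay under members with signals of only 16.6, 16.1, 13.2 and 11.995. A CpG, the dinucleotide at which methylation is known to hinder CTCF, lay in the core of 27.2% of the members with 1 best core. Members with such a core had a median of 105.9, against 71.8 for the rest. Both medians pool cores with up to 2 mismatches, and the match to the core was not held equal.

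Looking from the DNA instead of the peaks, long introns had both fewer cores and a lower share of them under a peak. Perfect cores numbered 689, or 1.81 per Mb, against 3.22 per Mb in the middle class and 4.63 in short genes. Of the 689, 589 lay under a peak, that is within 50 bp of a summit (85.5%, 82.6 to 88.0), compared with 88.9% (87.0 to 90.5) in the middle class and 90.8% (85.7 to 94.6) in short genes, and these intervals overlapped. Cores with 1 mismatch were under a peak in 26.3% of 6994 cases (25.2 to 27.3) in long genes, 36.1% (35.2 to 37.0) in the middle class and 42.3% (39.6 to 44.9) in short genes. Those with 2 mismatches were under a peak in 3.46% of 63515 cases, against 5.70% and 6.57% in the shorter classes. As a ratio of the shares under a peak, the gap between classes was smaller for perfect cores than for imperfect ones. Shares as high as 85.5% leave such a ratio little room, so it does not show that perfect cores differed less.

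Among long-gene cores with 1 mismatch, those with a CpG were under a peak in 48.9% of cases (45.8 to 52.0) and those without in 22.4% (21.3 to 23.5). In the middle class these shares were 54.1% and 31.7%. Cores with and without a CpG also differ in their bases, and the place of the mismatch was not held equal. Repeat-masked cores of long genes were under a peak in 18.9% (17.3 to 20.6), against 33.1% (31.6 to 34.6) for repeat-masked cores of the middle class. Outside repeats the shares were 29.7% (28.4 to 30.98) in long genes and 37.7% (36.5 to 38.8) in the middle class. Of the 100 perfect cores of long genes with no optimal peak, 53 had a summit within 50 bp in the far longer pooled list, and the other 47 had none there either. Repeat-masked sequence held 23% of these 100 cores and 10.2% of the 589 under a peak. The Csmd1 and Agbl4 cores shown above lay in repeat-masked sequence, and those of Gpc5 and Dab1 did not.

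**Figure D2:**
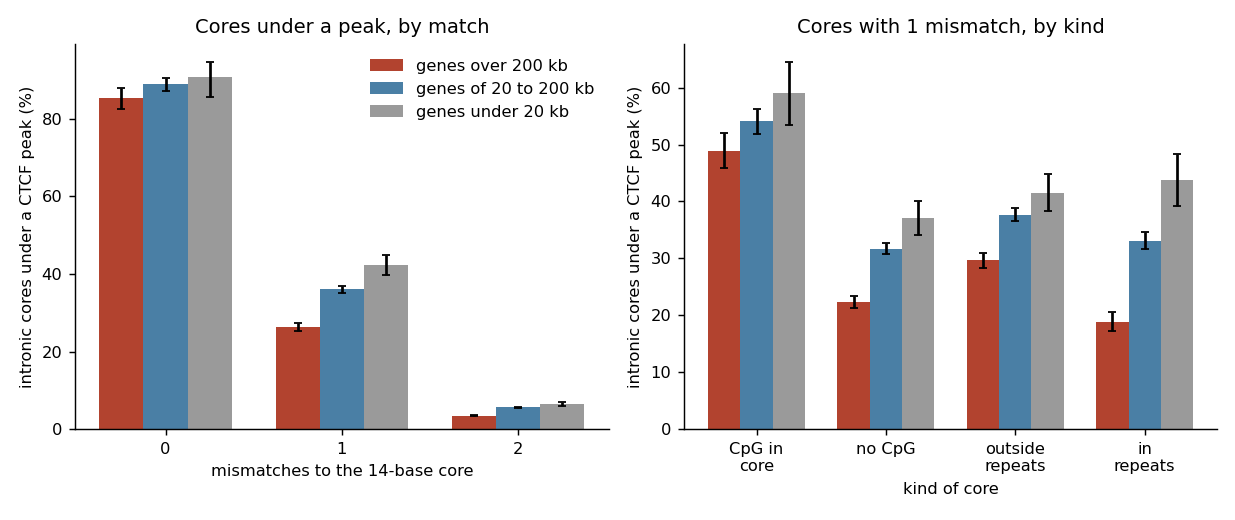
Share of intronic CTCF cores that lay within 50 bp of a peak summit, by mismatches to the core in the 3 gene length classes (left) and, for cores with 1 mismatch, by kind (right). Bars are percentages with exact 95% intervals, and the long-gene bar is the lowest in each set, from 85.5% at perfect cores to 3.46% at 2 mismatches.

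Repeats contributed a large group of members. Summits lay in repeat-masked sequence in 21.4% of members (20.3 to 22.5), although 28.2% of their introns were masked. In the middle class the share of summits was 31.02% (30.2 to 31.8) with 29.6% of the intron masked, and in short genes it was 32.0% with 29.3% masked. Of the 4162 members with 1 best core, 549 (13.2%) fell into 20 groups of similar 34-base sequences, and 502 of these formed a single group. It held 303 different host genes or gene combinations, and 484 of its 502 cores were repeat-masked. The repeat family was not annotated in the files used here. The median signal of the group was 41.0 (11.1 to 330.6), and over all 20 groups it was 41.6, against 90.9 for cores in no group. The strongest of the group outside Gm20388 lay in Arl15, which encodes a small GTPase of the ARF family, with 293.9 in the optimal list and 146.7 in each replicate. The second group held 9 members in 9 host genes, of which 4 summits were repeat-masked, with signals of 11.995 to 254.7.

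Members were spread over most long genes. At least 1 was found in 886 of the 953, which is 93% (91.2 to 94.5), and 93.0% and 93.1% in the replicates alone. A long gene held a median of 5 members, with quartiles of 2 and 8. Just 1 member was found in 95 genes, 10 or more in 163, and 20 or more in 20. Per Mb of intron the median gene had 13.4 and the quartiles were 6.17 and 25.6. Over the genes, the number of members went only weakly with length, with a Spearman's rho of 0.200. By chromosome, density ranged from 10.6 per Mb on chromosome 15 to 21.1 on chromosome 11.

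The spanning model Gm20388 held most members, 229 (233 and 236 in the replicates alone), and the Fgfr2 model came next with 87 (94 and 89). Gse1, which lies wholly inside the Gm20388 model, followed with 42 members (40 and 40), all of them counted in Gm20388 too. Camta1, for a calmodulin-binding transcription activator, held 37 (38 and 36). The Camta1 model also holds 4 whole coding genes. Nav2, for neuron navigator 2, held 29 (30 and 30). Rora, for a nuclear receptor that acts on clock and lipid genes, held 28 (26 and 23), as did Fry (28 and 30), for a microtubule-binding protein. Gm37240, a model with 6 whole genes inside, and Kalrn, for a guanine exchange factor of small GTPases, held 24 each. Pde4d, Atxn1 and Itpr2 shared the tenth place with 23 each. They encode a cyclic AMP phosphodiesterase, the repressor ataxin 1 and an inositol trisphosphate receptor of the endoplasmic reticulum.

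The densest gene was Gse1, at 127.5 members per Mb of intron in a gene of 352.9 kb with an intron GC of 54.1%. Tspear (90.9 per Mb) came next, but its model holds 23 whole coding genes. Zmiz1, for a transcriptional coactivator, had 89.8, Pitpnc1, for a phosphatidylinositol transfer protein, 86.7, Dnah8, for an axonemal dynein chain, 86.4, and Fry 86.3. Sh3pxd2a, Rap1gap2, Prkag2 and Skap1 had 74.9, 70.0, 69.3 and 68.5. Prkag2 encodes a subunit of the energy sensor AMPK and Skap1 an adaptor of T cells. Intron GC was over 43% in all 10 of these genes, and its median over the long genes with a member was 41.7%. Density went with GC over all long genes, and these 10 were picked for their density.

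The longest genes apart from the spanning models looked different. Ptprd, for a synaptic receptor phosphatase, held 9 members in 2271 kb (10 and 9 in the replicates alone), which is 4.06 per Mb. Cntnap2, of the neurexin family, held 7 in 2245 kb (9 and 7), or 3.27 per Mb. Lsamp, for a neuronal adhesion protein, held 16 in 2197 kb (16 and 14), or 7.41 per Mb. Lrp1b, of the LDL receptor family, held a single member in 2058 kb with a signal of 13.4, and replicate 1 alone had none. None of its 27 cores with 0 or 1 mismatch was under a peak, against 10 of 27 in Lsamp. As Lrp1b held a single member and Lsamp 16, this contrast largely restates the member counts. Intron GC in Ptprd, Cntnap2, Lsamp and Lrp1b lay between 36.3% and 37.8%.

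The largest distance between neighbouring members of a gene was 1638 kb in Cntnap2, from 45323702 to 46961476 on chromosome 6. Erbb4, for a neuregulin receptor, had a gap of 982.8 kb, and Magi2, for a synaptic scaffold protein, one of 948.3 kb. Typical neighbours were much closer, with a median of 22.6 kb and quartiles of 7.88 and 57.5 kb over 4854 pairs. Some 865 pairs (17.8%) lay under 5 kb apart and 201 lay over 200 kb apart.

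The 67 long genes without a member had a median length of 307.2 kb, against 327.7 kb for those with one, and a median intron GC of 38.3%, against 41.7%. The longest of them were Sntg1 (938.4 kb), Cdh18 (925.4 kb), Malrd1 (729.1 kb), Nkain3 (660.0 kb) and Fstl5 (635.8 kb). Cdh18 encodes a neuronal cadherin, and Malrd1 acts on bile acid balance in mice. Cdh18 had 1 peak in each replicate alone, while the other 4 had none in either. Their introns did hold cores with 0 or 1 mismatch, 17, 7, 14, 6 and 7 in the order given, none of which was perfect. None was under a peak, which follows almost by definition because these genes were picked for holding no member. Of the 67, 12 had a peak within 1 kb of their own start, Nkain3 among them, whereas 419 of all 953 long genes (43.97%) had one. Among the 67 genes without a member, 7 were protocadherin alpha genes, whose overlapping models share introns.

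**Figure D3:**
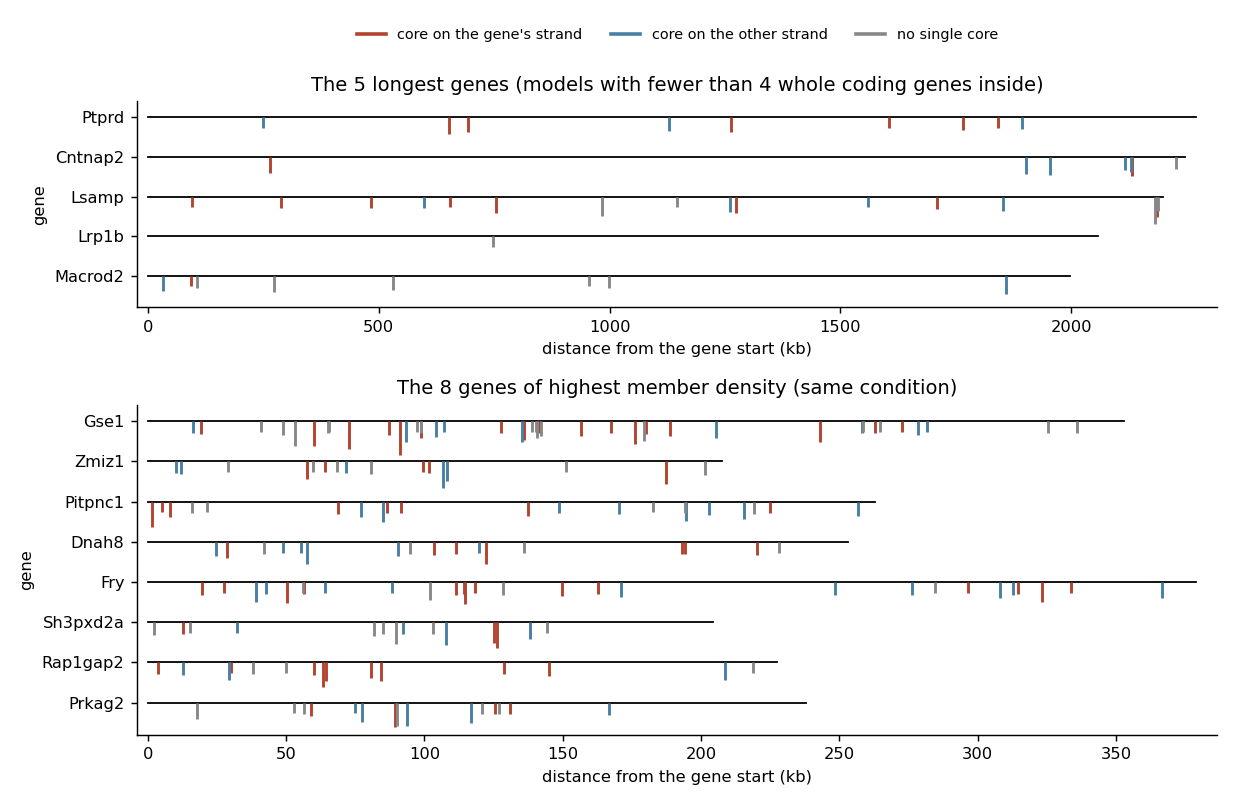
Members along the 5 longest genes (top) and the 8 genes with the highest member density (bottom), leaving out models that hold 4 or more whole coding genes. The x axis is the distance from the gene start in kb, each tick is 1 member, a longer tick has more signal, and colour gives the strand of its core relative to the gene. Lrp1b holds 1 tick in 2058 kb and Gse1 holds 42 in 352.9 kb.

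Gene groups differed in how densely they were marked. The genes were grouped by 8 lists of textbook function, which took in 233 names, 8 of them in more than 1 list. The shares of genes with a member given below lay near the 93% of all long genes and show nothing particular to a list. Long genes of hormone, growth and metabolism had 18.4 members per Mb (19.4 and 18.4 in the replicates alone). All 20 genes held at least 1. They were listed as active in liver without expression data, and theirs is called the liver list below. Rora and Pde4d led this list with 28 and 23 members. Blood cell regulators had 16.9 (17.4 and 17.8) in 15 of 15 genes, led by Foxp1, a forkhead repressor with 21 members, and Elmo1, a regulator of cell movement with 16. Regulators of development, in transcription and RNA processing, had 15.6 (16.9 and 15.6), with a member in 20 of 22 genes. Foxp1 is also in this list, and the splicing factor gene Rbfox1 came after it with 19. Meis2 and Bnc2 had none in the optimal list, although Meis2 had 2 and 1 in the replicates alone and Bnc2 had 1 in replicate 2 alone. The median gene of these 3 lists had 15.0, 15.2 and 13.99 per Mb in the order given, near the 13.4 of all long genes.

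The neuronal lists were lower. Synaptic and neuronal adhesion genes had 6.63 per Mb (6.96 and 6.68), and 44 of 46 held a member. The median gene had 5.38 per Mb and 7 of 46 lay above the median of all long genes. Nrxn3, for a presynaptic neurexin, held 18 and Lsamp 16, while Cntn6, for a contactin, and Cdh18 held none. Receptor and channel genes had 9.45 per Mb (9.63 and 9.36), with a member in 41 of 44 genes, of which 11 lay above that median. Gabbr2, for a GABA receptor subunit, stood out with 20 members at 63.0 per Mb, Dpp6, for a potassium channel partner, held 16, and Kcnh7 and Grm3 were among those with none. Axon guidance genes had 6.29 per Mb (6.47 and 6.38), with a member in 19 of 21 genes and 3 above the median of all. Slit3 and Nrg1, for a repellent ligand and a neuregulin, held 10 and 9, and Unc5c and Epha5 held none.

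Extracellular matrix and muscle attachment genes lay between, at 10.6 per Mb (10.4 and 11.2) with a member in 13 of 13. Prkg1, which was put in this list although it encodes a cyclic GMP kinase, held 14 of its 70 members. Ltbp1, which holds latent TGF-beta, held 12. Genes at common fragile sites had 6.46 per Mb (6.42 and 5.96), with a member in 18 of 18 genes and 3 above the median of all. Rora, which this list also holds, had 28 and Wwox, a tumour suppressor gene, had 21. Intron GC also differed between the lists. It was 41.1%, 41.4% and 42.7% in the lists of liver, blood and development, 39.4% in matrix genes, 40.5% in receptors and channels, 39.4% in adhesion, 39.0% in axon guidance and 39.0% at fragile sites. The amount of intron per gene differed too. The 18 fragile site genes held 24.3 Mb of eligible intron and the 46 adhesion genes 39.1 Mb. The 20 genes of the liver list held 9.35 Mb, and the 21 axon guidance genes, at a low density, held 10.97 Mb. Density fell with gene length, to 6.33 members per Mb in the 52 genes over 1000 kb that are not spanning models. The parts of GC and of gene length in the differences between lists were not tested. Cores with 0 or 1 mismatch were under a peak in 34.97% (28.1 to 42.4) of cases in the liver list, 33.9% (25.5 to 43.0) in blood regulators and 29.05% (23.0 to 35.7) in regulators of development. The share was 31.96% (22.9 to 42.2) in matrix genes, 26.1% (21.8 to 30.9) in receptors and channels and 27.7% (20.5 to 35.8) in axon guidance. It was 24.6% (21.2 to 28.3) in adhesion genes and 19.05% (14.9 to 23.8) at fragile sites, beside 31.4% over all long genes. The order by this share was not the order by density, and the intervals of adhesion, receptor and fragile site genes lay below the value of all long genes while those of the other 5 lists took it in.

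Within long genes, members were denser near both ends. The first 10 kb held 24.999 per Mb of intron. Density was then nearly flat, at 15.95 per Mb from 10 to 50 kb, 16.8 from 50 to 100 kb, 15.3 from 100 to 200 kb and 15.05 from 200 to 500 kb. The stretch beyond 500 kb held 11.4, but only genes over 500 kb reach it, and these were sparse as a whole. Within 50 kb of the gene start lay 766 of 5740 pairs of member and gene (13.3%, 12.5 to 14.3; replicates alone 13.5% and 13.5%), where 11.3% of the eligible intron lay. With each gene split into 10 equal parts, the first held 16.1 per Mb, the fourth 12.7, the seventh 12.6 and the last 20.2. Leaving out the spanning models gave 15.2, 12.4, 12.2 and 19.8 for the same parts.

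Transcript starts inside or outside the host gene marked a similar gradient. From 1 to 5 kb from the nearest start members lay at 24.5 per Mb, from 5 to 10 kb at 18.9, from 10 to 20 kb at 17.3, from 20 to 50 kb at 14.5, from 50 to 100 kb at 10.5 and beyond 100 kb at 7.21. In the middle class the same steps held 38.7, 33.8, 30.6, 25.1, 18.8 and 10.2, so members were the sparser at each step up to 100 kb, with ratios of 0.559 to 0.633. Beyond 100 kb the middle class held only 15 peaks in 1.48 Mb, too few to tell its density from that of members. The median member lay 18.6 kb from a start, whereas the median eligible intron base lay 28.7 kb away. Density went with the length of the exon-free stretch around the summit too. It was 28.1 per Mb in stretches under 5 kb, 20.7 from 5 to 20 kb, 15.1 from 20 to 50 kb, 12.4 from 50 to 100 kb and 9.09 in longer ones. The median signal fell along with it, at 82.9, 70.2, 59.2, 54.4 and 53.9.

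**Figure D4:**
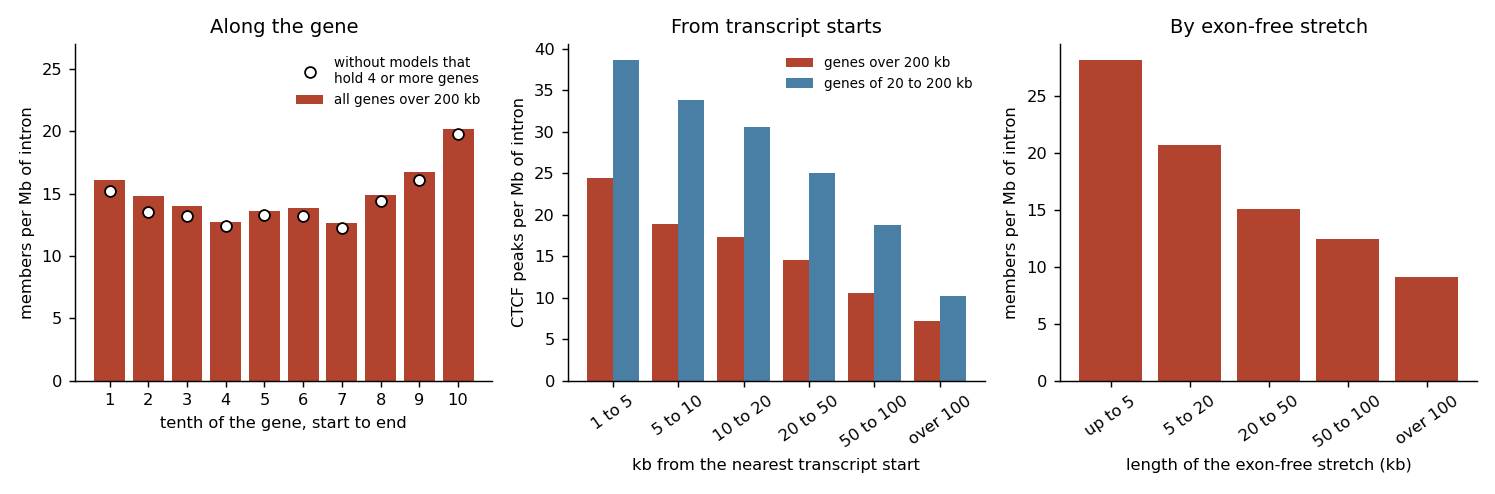
Members per Mb of eligible intron by part of the gene, from start to end (left), by distance to the nearest transcript start beside genes of 20 to 200 kb (middle), and by length of the exon-free stretch (right). The last part of the gene stands at 20.2 per Mb, density falls with distance from starts in both classes, and it falls from 28.1 to 9.09 with the length of the stretch.

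The core lay on the strand of its gene slightly less often than on the other strand. It was on the gene's own strand in 2005 of 4159 members (48.2%, 46.7 to 49.7), with 48.3% and 48.6% in the replicates alone. The upper bound lay just under an even split, and this interval treats members as independent. Members of a gene with 1 best core each were paired with the next such member, up to 200 kb away, which gave 3122 pairs. Members without 1 best core were skipped, so some lie between the members of a pair. Of these, 53.8% (52.0 to 55.5) were tandem, with both cores on the same strand, 716 (22.9%, 21.5 to 24.4) were convergent, pointing at each other, and 727 (23.3%, 21.8 to 24.8) were divergent. A member can be in 2 pairs, so the intervals are likely too narrow.

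Distance changed the balance between convergent and divergent pairs. Under 5 kb, 18.6% (15.3 to 22.3) of 494 pairs were convergent and 24.5% (20.8 to 28.5) divergent. From 5 to 20 kb the shares were 19.7% and 28.9%, and from 20 to 50 kb they were 23.7% and 25.03%. From 50 to 100 kb, 25.8% (22.4 to 29.6) were convergent and 16.4% (13.5 to 19.6) divergent, and from 100 to 200 kb the shares were 29.5% (25.03 to 34.4) and 16.3% (12.8 to 20.4). Close pairs were thus more often divergent than convergent and distant pairs the reverse, although the intervals of both shares overlapped under 5 kb and from 20 to 50 kb. Both replicates alone showed this turn. At 50 to 200 kb, convergent pairs made up 26.9% in replicate 1 and 27.7% in replicate 2, and divergent ones 16.3% and 17.6%, while under 20 kb the convergent shares were both 18.8% and the divergent ones 26.9% and 27.02%.

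Pairs of other autosomal peaks followed the same course. They were drawn along each chromosome with members skipped, and the peaks of a pair need not share a gene. Their convergent share was 19.4% (18.4 to 20.4) under 5 kb and 31.03% (29.2 to 32.9) at 100 to 200 kb, and their divergent share was 26.0% (24.9 to 27.1) and 18.3% (16.8 to 19.96). From 50 to 100 kb, divergent pairs were less frequent among members, at 16.4% (13.5 to 19.6), than among other peaks, at 21.1% (19.9 to 22.3), and tandem pairs were more frequent, at 57.8% (53.7 to 61.8) and 49.6% (48.2 to 51.1). These intervals did not overlap, although the pairs of members and those of other peaks were drawn by different rules. At the other distances the tandem, convergent and divergent shares of members had intervals that overlapped those of other peaks, for example 54.1% (49.03 to 59.2) and 50.6% (48.6 to 52.6) tandem at 100 to 200 kb, and the single step was picked out of 5 after its values were seen. No loop data were used here, so none of the pairs is known to anchor a loop.

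**Figure D5:**
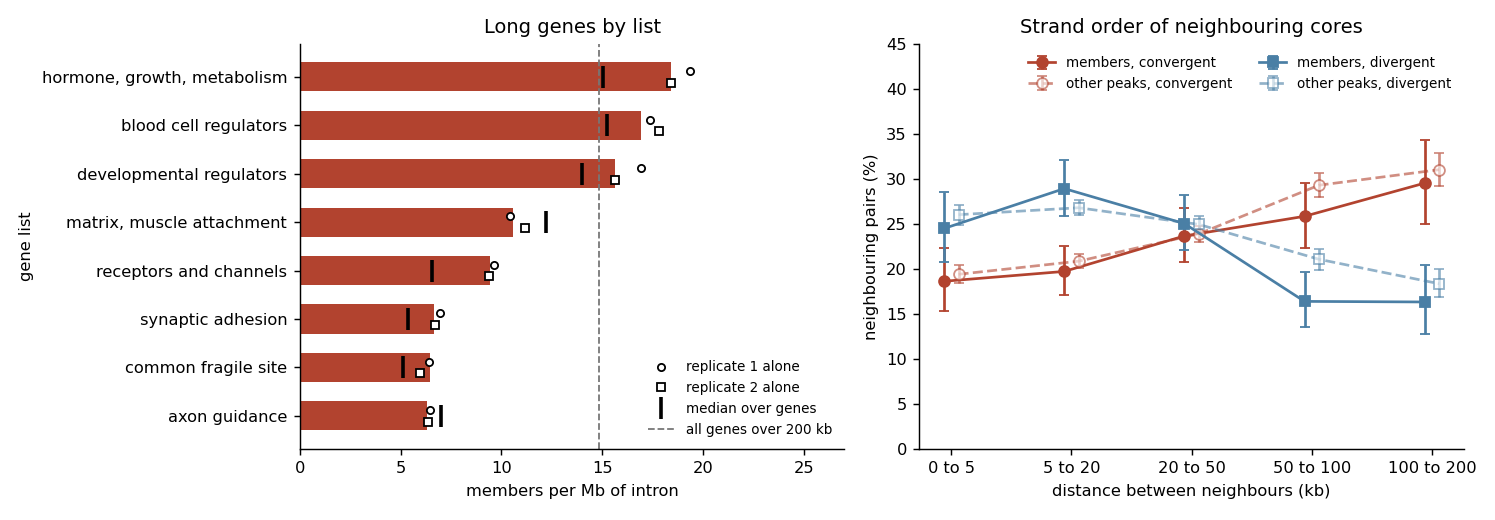
Members per Mb of intron in the long genes of 8 lists (left, bars from the optimal list, symbols from each replicate, ticks for the median gene, dashed line for all long genes) and the share of convergent and divergent pairs of neighbouring cores by distance (right, exact 95% intervals, filled for members and open for other autosomal peaks). The lists span 6.29 to 18.4 per Mb, and convergent pairs of members outnumber divergent ones at 50 to 200 kb.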

How the data were processed

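CTCF ChIP-seq peaks of 2 replicates were taken from the 5 lists the authors deposited on mm10: 1 per replicate, 1 pooled and 2 kept by IDR, per the text deposited with the samples. For aligner, caller, thresholds and read depth, the sources used here give nothing. The peak signal, the score and the −log10 q value are as the authors deposited them, and signal served to describe and rank peaks within their own list, score and q for nothing. The replicate lists hold 300000 peaks each, so the strongest 57220 were kept for values of a replicate alone. Genes and exons came from GENCODE M21 and bases from GRCm38, the assembly that mm10 names, with its repeat mask. Densities divide by the intron bases where a summit could be a member, on a grid of 100 bp for distances to starts. The 14-base core was sought on both strands with at most 2 mismatches. Exact Clopper-Pearson intervals (95%) cover counting error only. Python 3.11.15, numpy 2.4.6, pandas 2.3.3, scipy 1.17.1 and matplotlib 3.10.9 were used, and the core search was tested on simulated data.

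The members, gene lists and measures were chosen with earlier results of these data known. Genes are named where they are among the 10 with most members or the highest density, the 5 longest with or without a member, the hosts of the 10 strongest members, the 2 with most members or none in a list, or the 3 with the largest gaps. Some genes that meet this rule are not reported here, and no sequence of chromosome 18 is shown. Lrp1b and the hosts of other sequences shown, of weak perfect cores and at the length threshold were chosen after their values were seen.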

Additional observations from a re-analysis of the deposited data

How the results depend on the processing

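In every setting that gave the ratio, long introns had fewer peaks per Mb than the middle class. The conservative list gave 14.4 members per Mb (ratio to the middle class 0.466), 92.2% of long genes with a member, a core share of 76.7% and 22.4% convergent pairs. The stronger 28610 peaks gave 6.81 per Mb (0.44), 80.7%, 87.7%, a sense share of 48.6%, 20.6% convergent pairs and 12.1% of members within 50 kb of the gene start. Genes over 300 kb gave 12.6 per Mb (0.39), 93.7%, 76.7%, 48.7%, 22.6% and 9.72% for the same measures. Members over 5 kb from starts gave 13.7 per Mb, 90.2%, 76.7%, 21.8% convergent and 11.4% near the gene start. Without the spanning models, a setting chosen after the data were seen, the values were 14.2 per Mb (0.44), 93.6%, 76.0% and 14.2% near the start. Members inside exactly 1 coding gene gave 14.4 per Mb (0.446). With at most 1 mismatch the core share was 42.5%, the sense share 46.9% and the convergent share 21.9%. A core window of 100 bp gave 77.1% and 23.3%, and pairs up to 100 kb 22.0% convergent. Leaving out a replicate gave 14.9 to 15.1 per Mb, ratios of 0.46 to 0.469, shares of genes of 93.0% to 93.1%, of cores of 75.3%, of sense cores of 48.3% to 48.6%, of convergent pairs of 22.6% to 22.8% and near the start of 13.5%. Density moved by over 1.5 times only with the stronger 28610 peaks, a list that holds fewer peaks by construction. Of all alternatives, 47 moved by more than the very small SD between replicates and 11 did not. No paired analysis was possible because the series has 1 group.

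Several limits apply. The depth of the libraries is unknown, so CTCF at a gene without a member was not detected here and is not shown to be absent. Intervals cover counting error over peaks, genes or cores and no variation between litters. Gene length, base composition, core density and distance from exons and starts moved together, and their separate parts were not tested beyond the GC levels and distances given. How well reads map in repeats was not tested. Liver at birth mixes hepatocytes and blood-forming cells, and the cells that hold each member cannot be told apart.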
